A study of Mus musculus with 18 samples.

Results

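The regions described here are 11702 CpG-dense stretches of the mouse genome that held more DNA methylation in a leukemia library (AML) than in a library of bone marrow progenitors of the same labelled genotype (KO). They were taken from the authors' deposited table of differentially methylated regions between those libraries, as the regions of chromosomes 1 to 19 whose mean methylation was higher in AML by at least 0.2, on a scale where 1 is every read methylated, and which held at least 0.05 CpG sites per base. They make up 11702 of the 96225 regions of the table on these chromosomes and of 106032 regions in all, and are called members below. The members were thus chosen by the methylation of both libraries, the number of CpG sites and the length, and these values are given as a description with no test. Each methylation value comes from 1 library, there is no replicate check, and the coverage behind it is unknown.

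AML stands for C-Kit+ cells sorted from the spleen of leukemia-stage mice that carried the NUP98-HOXD13 fusion transgene (NHD13) and a Setd2 deletion made with Mx1-Cre. KO stands for hematopoietic stem and progenitor cells (HSPCs) sorted from bone marrow of NHD13/Setd2 KO mice, with no leukemia stage in the label. NHD13 stands for cells labelled HSPCs of NHD13/Setd2 flox/flox mice, and WT for cells labelled HSPCs of C57BL/6 mice. The fusion transgene was thus shared by AML, KO and NHD13, all samples are labelled C57BL/6, and no ages are given. NUP98-HOXD13 mice develop a myelodysplastic syndrome that can turn into acute leukemia, and Mx1-Cre, which interferon switches on, also acts outside the blood. Setd2 is the enzyme that trimethylates lysine 36 of histone H3 (H3K36me3). Whole-genome bisulfite sequencing was done on 1 library of each of the 4 groups, RNA-seq on 3 libraries of each, and H3K36me3 ChIP-seq on 1 library of leukemic C-Kit+ spleen cells labelled NHD13/Setd2 KO (KO AML) and 1 labelled NHD13 (NHD13 AML). AML and KO differed in organ, sorted population and disease stage together, so these cannot be told apart.

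In mammals most CpG sites are methylated and most CpG dinucleotides have been lost from the genome, while clusters of CpG sites, the CpG islands, mostly lie at gene starts and stay free of methylation in normal tissues. The islands of developmental regulators that are silent in blood are held by Polycomb complexes, and in many cancers, acute leukemia among them, islands of this class gain methylation. Methylation of an island at a gene start goes with stable silencing, while H3K36me3 in transcribed gene bodies recruits the de novo DNA methyltransferases.

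Setd2 itself stood at 183, 187 and 179 CPM (counts scaled to library size and composition) in the AML libraries, at 33.1, 29.2 and 34.9 CPM in the libraries labelled KO, at 34.4, 34.6 and 31.5 CPM in NHD13 and at 45.2, 43.9 and 37.2 CPM in WT. Counts over the whole gene cannot see a deleted exon, so they do not check the KO label, and each direction against KO rests on that label. RNA libraries held 18673704 to 28127686 counts. Nothing in the labels ties the 3 RNA libraries of a group to different mice, so the spread behind each p-value may be technical. The summed level of 4 markers of stem and progenitor cells was 535 to 547 CPM in AML and 298 to 312 CPM in KO. Of these, Kit, Cd34 and Flt3 were higher in AML and Meis1 was lower. Other markers moved too. The sum of 5 neutrophil genes was 12500 to 12700 CPM in AML and 4030 to 4610 CPM in KO, and that of 4 erythroid genes 53.9 to 58.5 CPM in AML and 250 to 264 CPM in KO. For 3 B cell genes it was 5.58 to 6.68 CPM in AML and 0.712 to 0.951 CPM in KO, and for 3 monocyte genes 153 to 162 CPM in AML and 196 to 223 CPM in KO. For 4 stroma and endothelial genes it was 161 to 167 CPM in AML and 55.3 to 61.1 CPM in KO. Of these, Pdgfrb stood at 58.6 to 62 CPM in AML and 19.6 to 20.7 CPM in KO. Col1a1 stood at only 1.17 to 1.29 CPM in AML and 0.0381 to 0.285 CPM in KO. Cdh5 stood at 0.273 to 0.603 CPM in AML and 0 to 0.0761 CPM in KO. The sum of 4 T and NK cell genes was 135 to 138 CPM in AML and 1120 to 1160 CPM in KO, with Cd3e at 0 to 0.0426 CPM in AML and 0 to 0.105 CPM in KO. The part of this different cell mix in the results below was not tested, and in bulk RNA fewer cells of a type and less RNA per cell cannot be told apart.

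The sequences below show starts of genes whose upstream 250 bases lie wholly inside a member. They come from RefSeq (GRCm38.p6, the build of the files, mm10), read 5′ to 3′ on the strand of the gene up to the transcription start, with each CpG site in capitals. Dmrta2 and Tlx3, transcription factors of neural development, stand for regulators with little or no RNA under long members: the Tlx3 gene had no count in any of the 12 libraries, and Dmrta2 had none in KO, NHD13 and WT. The Dmrta2 stretch is chr4:109977775-109978024 on the plus strand with 19 CpG sites, and the Tlx3 stretch is chr11:33203589-33203838 on the minus strand with 13.

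Dmrta2: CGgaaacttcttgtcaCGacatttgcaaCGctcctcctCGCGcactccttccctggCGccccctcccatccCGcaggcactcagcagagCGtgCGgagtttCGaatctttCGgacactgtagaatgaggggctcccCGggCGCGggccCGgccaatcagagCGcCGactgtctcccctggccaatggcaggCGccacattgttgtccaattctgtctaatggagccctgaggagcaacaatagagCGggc
Tlx3: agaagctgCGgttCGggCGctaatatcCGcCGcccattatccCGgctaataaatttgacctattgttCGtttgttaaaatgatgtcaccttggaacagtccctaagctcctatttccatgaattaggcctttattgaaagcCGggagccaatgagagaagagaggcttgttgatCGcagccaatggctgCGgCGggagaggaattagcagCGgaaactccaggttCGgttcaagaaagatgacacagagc

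Flywch2, Tcf19, Oaf and Mgmt stand for genes that were expressed in KO and fell in AML. Their stretches are chr17:23786082-23786331 (minus strand, 19 CpG sites), chr17:35516825-35517074 (minus strand, 29 CpG sites), chr9:43239817-43240066 (minus strand, 15 CpG sites) and chr7:136894336-136894585 (plus strand, 15 CpG sites).

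Flywch2: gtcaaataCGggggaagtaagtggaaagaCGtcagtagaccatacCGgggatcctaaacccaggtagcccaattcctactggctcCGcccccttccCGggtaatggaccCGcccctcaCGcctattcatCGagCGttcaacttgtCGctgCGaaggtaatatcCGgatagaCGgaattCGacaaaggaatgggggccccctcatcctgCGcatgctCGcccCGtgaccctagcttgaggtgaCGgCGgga
Tcf19: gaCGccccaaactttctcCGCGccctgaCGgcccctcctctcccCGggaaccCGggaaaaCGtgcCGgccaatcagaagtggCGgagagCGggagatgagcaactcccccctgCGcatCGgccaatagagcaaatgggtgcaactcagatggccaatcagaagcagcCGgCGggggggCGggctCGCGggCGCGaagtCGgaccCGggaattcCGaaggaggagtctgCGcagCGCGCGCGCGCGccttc
Oaf: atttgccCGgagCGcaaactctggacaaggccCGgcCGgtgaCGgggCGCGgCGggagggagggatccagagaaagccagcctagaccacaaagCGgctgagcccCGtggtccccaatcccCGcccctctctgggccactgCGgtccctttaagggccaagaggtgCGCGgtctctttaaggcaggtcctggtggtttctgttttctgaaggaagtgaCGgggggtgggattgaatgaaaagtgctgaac
Mgmt: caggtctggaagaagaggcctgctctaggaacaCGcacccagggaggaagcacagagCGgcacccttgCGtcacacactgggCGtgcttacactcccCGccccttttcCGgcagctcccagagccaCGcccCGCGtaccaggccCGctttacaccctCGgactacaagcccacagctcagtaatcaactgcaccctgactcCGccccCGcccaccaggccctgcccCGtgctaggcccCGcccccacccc

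Hoxa2 stands for a gene that rose although its start gained methylation, and Grb10 for the imprinted genes. The Hoxa2 stretch, chr6:52164832-52165081 on the minus strand, held 6 CpG sites with a G+C content of 46.4%. It is thus not CpG-dense itself, and only its member as a whole is, with 204 CpG sites in 3241 bases. The Grb10 stretch, chr11:12037421-12037670 on the minus strand, held 40 CpG sites with a G+C content of 81.2%.

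Hoxa2: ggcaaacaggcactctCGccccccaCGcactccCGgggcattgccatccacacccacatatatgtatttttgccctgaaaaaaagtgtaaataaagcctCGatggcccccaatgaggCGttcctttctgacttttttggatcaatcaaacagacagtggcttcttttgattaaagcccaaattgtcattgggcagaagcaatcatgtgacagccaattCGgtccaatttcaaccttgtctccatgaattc
Grb10: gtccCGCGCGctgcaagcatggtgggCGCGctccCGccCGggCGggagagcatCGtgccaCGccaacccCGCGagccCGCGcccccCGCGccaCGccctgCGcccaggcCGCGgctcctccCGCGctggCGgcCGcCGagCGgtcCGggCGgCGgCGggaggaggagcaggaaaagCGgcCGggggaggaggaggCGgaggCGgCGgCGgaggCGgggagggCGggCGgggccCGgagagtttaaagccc

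Among the 2164 promoter windows of the RefSeq table (250 bases before to 50 after the start) that a member overlapped, the median was 16 CpG sites, against 7 over all 31396 windows. At least 15 were held by 56.4% of the overlapped windows. The 9019 windows with at least 15 whose gene had no member near it had a median of 25. GGGCGG and CACGTG each contain a CpG site, so their shares below compare sets of unlike CpG content. The GC box GGGCGG, searched on both strands, was in 56.9% of the overlapped windows, against 36% of all windows and 76.7% of the 9019 windows with at least 15 CpG sites whose gene had no member near it. TATAAA, searched on both strands, was in 6.56% of the overlapped windows, against 4.6% of those 9019 windows and 13.6% of all. CCAAT, on both strands, was in 35.5% of the overlapped windows, 35.5% of those 9019 windows and 37.3% of all. CACGTG was in 7.02% of the overlapped windows, against 11.9% of those 9019 windows and 7.14% of all. None of the 4 motifs contains another, although neighbouring matches can share end letters. A match is a description of the letters and not a binding site.

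Methylation of the members had a median of 0.752 in AML (range 0.277 to 0.993) and 0.423 in KO (range 0.0358 to 0.791), and the gain had a median of 0.272 and reached 0.763. Low methylation in KO was uncommon: 75 members (0.641%) were below 0.1 and 899 (7.68%) between 0.1 and 0.2. A gain between 0.2 and 0.3 was held by 62.2% of them, 415 gained 0.5 to below 0.6 and 104 gained 0.6 or more. The median member was 357 bases long with 24 CpG sites, and together the members covered 7.33 Mb. Members of 1000 bases or more numbered 2108 and held 56.3% of the bases and 61.2% of the CpG sites. In these longer members the median was 0.729 in AML and 0.298 in KO, a median gain of 0.405, while in the shorter ones it was 0.76 in AML and 0.468 in KO, a gain of 0.257.

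**Figure D1:**
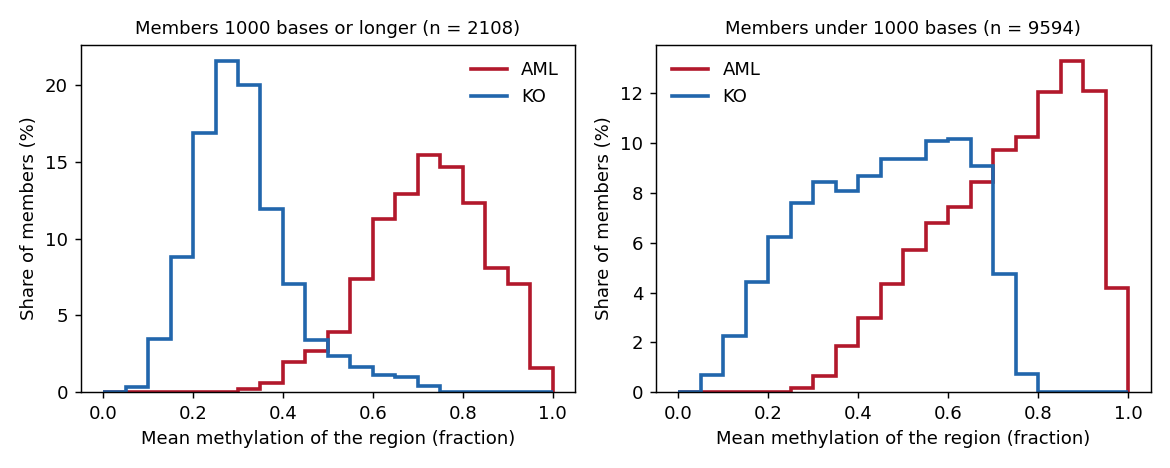
Distribution of the mean methylation of members (x axis, fraction) in the AML library (red) and the KO library (blue), as the share of members in steps of 0.05 (y axis, percent), for members of 1000 bases or longer (left) and shorter ones (right). The longer members have medians of 0.729 in AML and 0.298 in KO, and the shorter ones of 0.76 in AML and 0.468 in KO.

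At the threshold of 0.2, members just inside it were a region of Piwil1 (0.79014 in AML, 0.59013 in KO) and one of Fbxw28 (0.95641 in AML, 0.7564 in KO), and just outside it lay a region at Chrna5 (0.44999 in AML, 0.25 in KO). At the density threshold, a member within Chst11 held exactly 0.05 CpG sites per base, and just outside lay regions within Lhx4 (0.049911) and near Isl1 (0.049975).

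The member with the most CpG sites spanned the whole neighbourhood of Dmrta2: 13263 bases with 1302 CpG sites (chr4:109973360-109986622), methylated at 0.834 in AML and 0.229 in KO. Dmrta2 encodes a DM-domain transcription factor of the developing forebrain. Its RNA was low but present in AML, at 0.302, 0.511 and 0.546 CPM, with no count in any KO library. Taking 3 counts in the KO group as the floor, this was at least 10.1-fold higher in AML. Dmrta2 did not pass the filter on low counts and has no test. The other long members also lay over regulators of development. A member over Pou3f3, a neural POU-domain factor, had 947 CpG sites (chr1:42692863-42700325; 0.842 in AML, 0.403 in KO), and members over Ebf3 and Ebf2, relatives of the B cell factor Ebf1, had 852 (0.793 in AML, 0.317 in KO) and 800 (0.741 in AML, 0.301 in KO). Foxe1, a thyroid forkhead factor, lay under a member with 815 CpG sites (0.895 in AML, 0.345 in KO), and Scrt1, a neural repressor, under one with 787 (0.676 in AML, 0.244 in KO). The member over Tlx3, whose promoter is shown above, had 777 CpG sites (chr11:33199028-33204817; 0.836 in AML, 0.279 in KO), and that over Otx2, a head and eye homeobox factor, had 609 (0.738 in AML, 0.287 in KO). A pair of the 8 members richest in CpG sites were of another kind. One lay over the ribosomal RNA entries Rn18s-rs5 and AY036118 (chr17:39842839-39849016, 1227 CpG sites, 0.595 in AML, 0.375 in KO), a repeated sequence whose copies cannot be told apart here, and the other, the longest at 14526 bases, over the predicted genes Gm36079 and Gm21188 (chr13:120024143-120038668, 0.940 in AML, 0.489 in KO).

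The largest gains reached levels near full methylation. A member within Otud7a, 2599 bases with 478 CpG sites (chr7:63757257-63759855), stood at 0.931 in AML and 0.171 in KO. The member over Foxe3, a forkhead factor of the lens, stood at 0.917 in AML and 0.170 in KO over 318 CpG sites (chr4:114923973-114926286). A member of 2242 bases that overlapped Meis1, the homeobox partner of the Hox proteins in leukemia, and its neighbour Gm16141 stood at 0.884 in AML and 0.130 in KO (chr11:19013296-19015537). Meis1 RNA stood at 11.2, 12.3 and 13.6 CPM in AML, against 21.8, 23.3 and 21.6 CPM in KO, and fell (log2 fold change -0.85 ± 0.09, edgeR adjusted p = 8.45e-08). Over Tcf15, a mesodermal bHLH factor, the member stood at 0.867 in AML and 0.148 in KO with 281 CpG sites, and Tcf15 RNA was at most 0.0426 CPM in AML and 0.0761 CPM in KO.

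The members lay on every chromosome from 1 to 19, with 313 on chromosome 16 and 959 on chromosome 2 as the extremes, and they made up 7.47% of the regions of chromosome 16 and 17.3% of those of chromosome 19. The median distance to the next member was 72847 bases, and 968 of 11683 gaps (8.29%) were under 1000 bases. By position, 14.9% of the members (1747) overlapped a promoter window, 9.64% lay within 1000 bases of one, 49.5% lay elsewhere in a gene and 25.9% touched no RefSeq gene. A member at a promoter window or within 1000 bases of it is called linked to that gene below. Of all regions of the table, 6.13% were linked, against 24.6% of the members, 6.29% of the regions that gained methylation with fewer CpG sites per base, and 4.49% of the CpG-dense regions that lost it. These sets are not matched for length, which raises the share. In the same order, their median lengths were 228, 357, 290 and 95 bases. The members were also chosen for CpG density. Members that overlapped a promoter window were longer, with a median of 1072 bases, and had the lowest median in KO (0.304; 0.714 in AML), while members outside genes had a median of 0.494 in KO and 0.786 in AML. No promoter window of chromosome 18 was used, so its 387 members count here by gene interval alone.

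H3K36me3 peaks of leukemic cells overlapped a small share of the members, though a larger share than of all regions. By bases, NHD13 AML peaks covered 3.56% of the members and 3.25% of all regions, and KO AML peaks 0.99% and 0.557%. A KO AML peak was overlapped by 167 members (1.43%, Wilson 95% interval 1.23 to 1.66; 0.6% of all regions), and a NHD13 AML peak by 835 members (7.14%, interval 6.68 to 7.62; 3.73% of all regions). The peak lists differ in size, with 16776 peaks over 28.2 Mb in KO AML and 29945 peaks over 190 Mb in NHD13 AML on these chromosomes, so the shares give no change between these libraries, and the intervals cover counting error only. Within the members, the overlap with NHD13 AML peaks was 13% in gene bodies away from promoters, 1.55% at promoter windows and 0.89% outside genes. For KO AML peaks the shares were 2.38%, 0.973% and 0.132%. Of the regions that gained methylation with fewer CpG sites per base, 12.1% overlapped a NHD13 AML peak. No member among the 8 with the most CpG sites lay under a peak of either list apart from the ribosomal RNA member (5853 of its 6178 bases under a KO AML peak and 5831 under a NHD13 AML peak) and the longest one, of which 947 bases lay under a KO AML peak and all 14526 under a NHD13 AML peak.

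Some members also differed between the libraries without a leukemia label. Of the members, 22.7% (2653) overlapped a region of the deposited NHD13 against WT table, against 12.2% of all regions, and these members touched 5.29% of that table. The shares are not matched for length, with a median of 357 bases for members and 228 for all regions. Of those overlapping members 71.2% (1888) were higher in NHD13 than in WT, while over all overlapping regions 25.2% were, and over CpG-dense regions that lost methylation in AML 10.5%. The KO against NHD13 table was overlapped by 18.6% of the members (2178; 10.3% of all regions), and 63.1% of these were higher in KO, against 80.9% of all overlapping regions and 93.5% of the CpG-dense ones that lost methylation in AML. That table shares the KO library with the rule that chose the members. For 913 members the same stretch, sharing at least 50% of both intervals, had values in 4 libraries, with medians of 0.424 in WT, 0.512 in NHD13, 0.497 in KO and 0.813 in AML. The 545 of these that were higher in NHD13 had medians of 0.26 in WT, 0.535 in NHD13, 0.499 in KO and 0.827 in AML. They were split off by the sign of NHD13 against WT and chosen by AML against KO, so the order of these medians is in part set by the choice. The other 368 had medians of 0.772 in WT, 0.475 in NHD13, 0.494 in KO and 0.785 in AML, and in 198 of them AML was above WT. Each of these values is from 1 library, and regions of 1 library are not replicates.

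Lists of developmental and neuronal genes had the highest shares of genes at members. The members linked to 2911 of 25748 gene symbols with a promoter window, 11.3%, of which 1878 had the window itself overlapped. Of homeobox transcription factors outside the Hox clusters, which set the identity of tissues in the embryo, 70 of 79 (88.6%) were linked to a member, and of other developmental transcription factors, such as the Fox, Sox and Zic families, 57 of 72 (79.2%). Neuronal ion channels and receptors followed with 54 of 75 (72.0%), Wnt ligands and antagonists with 18 of 30 (60.0%), Hox genes with 13 of 22 (59.1%), ligands and inhibitors of the TGF-beta, FGF and hedgehog pathways with 20 of 34 (58.8%), and protocadherins and cadherins, which hold cells together, with 15 of 28 (53.6%). Stroma and endothelial genes stood at 6 of 10. As a closer yardstick than 11.3%, 64.0% of all genes with at least 15 CpG sites in the window and below 0.1 CPM in KO were linked (below). The lists with shares of 53.6% to 60.0% did not exceed it, although not all of their windows hold as many CpG sites. Among single genes, Ank2, Bdnf, Esrrg, Gdf7 and C130071C03Rik had the most linked members, 4 each, and 312 symbols had more than 1.

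Lists of blood genes and of the epigenetic machinery had lower shares, although those of the blood lists were above the 11.3% of all symbols. Among all genes with at least 15 CpG sites in the window, 12.2% of those at 1 to 10 CPM in KO were linked. At 10 to 100 CPM this was 4.4% (below). Not all windows of these lists hold as many CpG sites. Stem and progenitor regulators stood at 6 of 30, B, T and NK cell genes at 4 of 24 (16.7%), myeloid factors and receptors at 4 of 26 (15.4%), erythroid and megakaryocyte genes at 3 of 21 (14.3%), Polycomb genes at 3 of 26 (11.5%) and germline genes at 4 of 38 (10.5%). Of the DNA methylation genes, 1 of 17 was linked, Dnmt3l, and of the H3K36 methyltransferases none of 3. Tumor suppressors reported as methylated in leukemia stood at 13 of 28 (46.4%) and imprinted genes at 16 of 40 (40.0%). The median methylation of the members linked to imprinted genes was 0.882 in AML and 0.573 in KO, with KO the highest among the lists with more than 10 linked genes, against 0.675 in AML and 0.278 in KO at the homeobox genes.

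**Figure D2:**
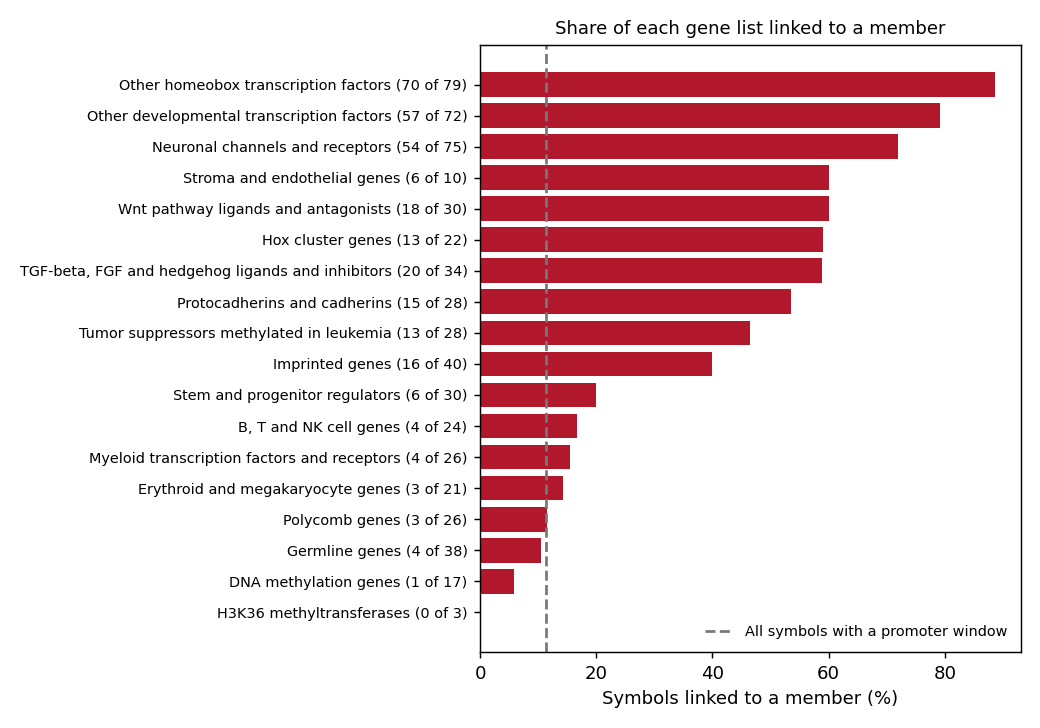
Share of the genes of each list that were linked to a member (x axis, percent of the symbols with a promoter window, counts in brackets), with the share over all 25748 symbols as a dashed line at 11.3%. The lists of developmental, neuronal and cadherin genes reach 53.6% to 88.6%, and no list of blood-cell or chromatin genes exceeds 6 of 30. Of all genes with at least 15 CpG sites in the window and below 0.1 CPM in KO, 64.0% were linked.

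All 4 Hox clusters carried members, though to a different extent. The Hoxd cluster (chr2:74668225-74765142) held 21 members over 29.7% of its bases, with a median of 0.62 in AML and 0.317 in KO. The Hoxb cluster held 24 members over 16.2% of its bases (0.646 in AML, 0.271 in KO), the Hoxc cluster 13 over 17.6% (0.73 in AML, 0.29 in KO) and the Hoxa cluster 9 over 11.7% (0.633 in AML, 0.272 in KO). CpG-dense regions that lost methylation numbered 3 in Hoxb, 1 in Hoxc and none in Hoxa and Hoxd. Hoxd13, whose human counterpart supplies the homeobox part of the fusion, was linked to a member at 0.691 in AML and 0.339 in KO. Its own RNA was 0 in all AML libraries and at most 0.0761 CPM in KO.

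The member over Hoxa2, the hindbrain Hox gene, had the highest methylation among the linked Hox genes, 0.944 in AML and 0.312 in KO over 204 CpG sites (chr6:52164081-52167321). Its RNA nevertheless stood at 5.52, 5.37 and 4.72 CPM in AML, against 0.422, 0.533 and 1.04 CPM in KO, so that all AML libraries were above all KO libraries (log2 2.96 ± 0.31, edgeR adjusted p = 4.73e-08). Hoxb4, a gene of stem cell self-renewal, also rose, to 2.24 ± 0.48 CPM in AML against 0.516 ± 0.188 CPM in KO (log2 2.14 ± 0.31, edgeR adjusted p = 4.09e-06; mean ± SD, n = 3 for CPM here and below, ± SE for log2), with a member at 0.802 in AML and 0.311 in KO. Hoxa10, a leukemia-associated Hox gene, fell to 7.81 ± 0.262 CPM in AML, against 13.8 ± 0.952 CPM in KO (log2 -0.82 ± 0.11, edgeR adjusted p = 1.21e-06), with a member of 251 bases at 0.483 in AML and 0.24 in KO. The other 10 linked Hox genes did not pass the filter on low counts, with at most 0.854 CPM in any library of AML or KO.

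Hairpins of 16 of the 919 miRNAs on these chromosomes (1.74%) overlapped a member. All regions together overlapped 37 (4.03%), a number that includes these 16. The members are 11702 of the 96225 regions and hold 7.33 of their 33.5 Mb. Among the 16, the mature sequences of those whose names are best known are shown with the seed, bases 2 to 8, in capitals (RefSeq, GRCm38.p6). None of them share a seed. miR-9 and miR-137 act in neurons, and miR-125b and miR-148a in blood and other tissues. For the miR-375 hairpin the sequence shown was the only mature one available, and no role is given for it here.

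mmu-miR-9-5p: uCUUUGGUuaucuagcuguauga
mmu-miR-137-3p: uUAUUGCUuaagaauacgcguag
mmu-miR-125b-5p: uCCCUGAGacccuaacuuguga
mmu-miR-148a-3p: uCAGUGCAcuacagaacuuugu
mmu-miR-375-5p: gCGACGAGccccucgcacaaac

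The member over Mir9-3 stood at 0.704 in AML and 0.26 in KO (267 CpG sites, chr7:79503771-79506444), and that over Mir137 at 0.723 in AML and 0.343 in KO (128 CpG sites). The member over Mir125b-1 was short, 178 bases with 18 CpG sites, at 0.635 in AML and 0.299 in KO. Mir148a lay under a member at 0.602 in AML and 0.276 in KO, and Mir375 under one at 0.534 in AML and 0.218 in KO. RNA levels of miRNAs were not analysed here.

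Most linked genes had little or no RNA in KO and in AML alike. Of the 2490 linked symbols with a row in the RNA tables, 1926 (77.3%) were below 1 CPM in every KO library and 1928 (77.4%) in every AML library, against 53.8% in KO and 52.5% in AML of the 18858 matched symbols with a window. Per length, the median linked gene stood at 0.00851 FPKM, the deposited level scaled for gene length, in AML and 0.0102 FPKM in KO, against 0.235 and 0.118 FPKM for all symbols with a window. The contrast was larger among genes with a CpG-dense window, at least 15 CpG sites in the 300 bases: 74.4% of the 1612 linked ones were below 1 CPM in every KO library, and 15.1% of the 7236 that were not linked. Split by level in KO, 909 of 1420 such genes below 0.1 CPM were linked (64.0%), 323 of 978 between 0.1 and 1 CPM (33.0%), 193 of 1578 between 1 and 10 CPM (12.2%), 159 of 3616 between 10 and 100 CPM (4.4%) and 28 of 1256 at 100 CPM or more (2.23%).

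**Figure D3:**
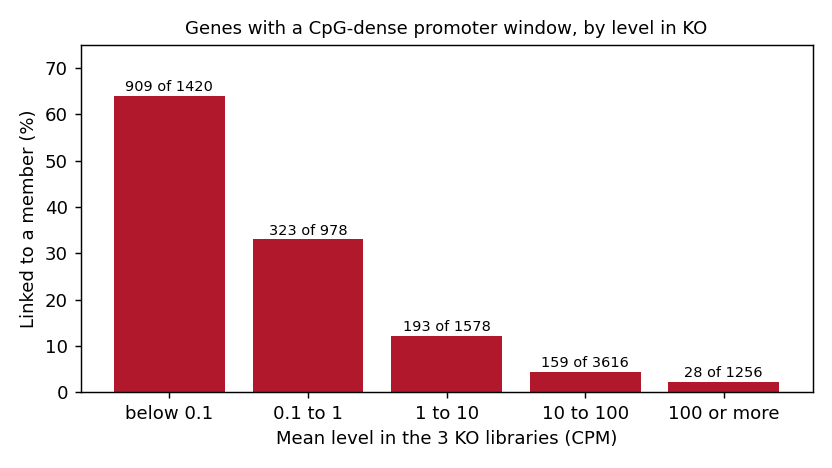
Share of genes with a CpG-dense promoter window that were linked to a member (y axis, percent, with counts above the bars), by the mean RNA level in the 3 KO libraries (x axis, CPM). The share falls in each step, to 2.23% of the genes at 100 CPM or more, against 64.0% of those below 0.1 CPM.

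Linked genes that were expressed moved in both directions in AML. Of the 2490 matched genes, 910 passed the filter on low counts. Of these 322 (35.4%) were lower in AML than in KO and 377 (41.4%) higher, while of all 16233 genes tested 39.5% were lower and 42.8% higher (edgeR quasi-likelihood test, adjusted p below 0.05), so the shares of linked genes were near the background in both directions. The median log2 fold change was 0.16 over the linked genes and 0.07 over all genes tested. Where the member overlapped the promoter window itself, 181 of 447 (40.5%) were lower and 156 (34.9%) higher.

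The split of calls differed between bins of the gain, a difference that was not tested. For linked genes with a largest gain from 0.2 to below 0.3, 157 of 504 tested genes were lower (31.2%) and 221 higher (43.8%). From 0.3 to below 0.4 these were 34.7% and 42.6% of 216, and from 0.4 to below 0.5 they were 37.4% and 40.7% of 123. At a gain of 0.5 or more, 44 of 67 were lower (65.7%), 14 higher (20.9%) and 9 were not called. Their median log2 fold change was -3.12, or -2.81 with the 14 genes that had no count in one group set to the bound that 3 counts allow. That step to 0.5 was chosen after the values were seen. These 67 are the part of 269 matched genes that passed the filter, and the other 202 did not. Of the lower genes, 39 of 44 were below 1 CPM in every AML library, so most passed through their level in the other groups. Where the member overlapped the promoter window, 39.5% were lower and 38.7% higher from 0.3 to below 0.4, 39.1% and 34.8% from 0.4 to below 0.5, and 72.4% and 12.1% at 0.5 or more.

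**Figure D4:**
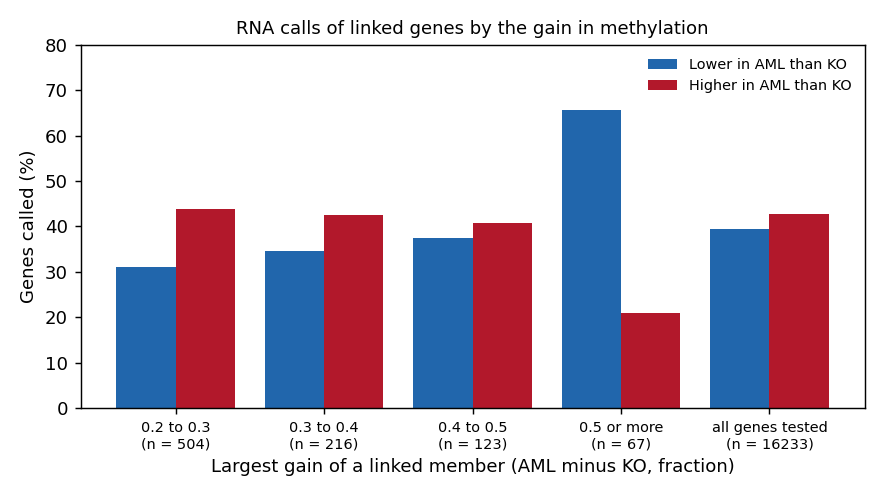
Share of tested genes called lower (blue) or higher (red) in AML than in KO (y axis, percent), by the largest gain in methylation of a linked member (x axis), with all genes tested on the right. In the bin of 0.5 or more, with 67 genes, 65.7% were lower and 20.9% higher, against 39.5% and 42.8% of all genes tested.

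None of the 10 linked genes that fell most in AML belonged to the developmental lists, but few genes of those lists could have. The rule asked for a test and at least 5 CPM in the higher group. Of the linked genes, 6 of 70 homeobox genes outside the clusters, 2 of 57 other developmental factors and 3 of 13 Hox genes were tested. Slc25a21, the mitochondrial carrier of oxodicarboxylates (ENSMUSG00000035472), had no count in any AML library, against 26.6, 29.8 and 24.8 CPM in KO, at least 658-fold lower taking 3 counts in the AML group as the floor (edgeR adjusted p = 7.5e-16). Its member, with 143 CpG sites in all (chr12:57196227-57197487), overlapped the promoter window and stood at 0.897 in AML and 0.381 in KO. NHD13 stood at 35.4 ± 2.34 CPM and WT at 21.6 ± 1.92 CPM, so the gene was on in all 3 groups labelled HSPCs.

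Cox6b2, the testis form of a subunit of cytochrome c oxidase (ENSMUSG00000051811), stood at 0.905, 0.383 and 0.624 CPM in AML, against 105, 100 and 105 CPM in KO (log2 -7.33 ± 0.13, edgeR adjusted p = 1.45e-18). Its member (chr7:4751969-4753364) stood at 0.682 in AML and 0.299 in KO. Mgmt, which removes alkyl groups from guanine in DNA (ENSMUSG00000054612), stood at 0.0431, 0.128 and 0 CPM in AML, against 4.74, 5.82 and 5.7 CPM in KO (log2 -6.48 ± 0.32, edgeR adjusted p = 5.59e-13), a total of 4 counts in AML and 363 in KO. The Mgmt member, shown above by its promoter (chr7:136894200-136894842, 63 CpG sites), stood at 0.725 in AML and 0.245 in KO. Mgmt was also ordered across the other groups, at 24.7 ± 0.584 CPM in WT, 9.42 ± 0.634 CPM in NHD13 and 5.42 ± 0.59 CPM in KO. For all 3 genes every AML library was below every KO library.

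Alox5, the lipoxygenase that starts leukotriene synthesis in myeloid cells (ENSMUSG00000025701), fell to 0.0431, 0.0426 and 0.117 CPM in AML, against 6.22, 9.44 and 7.17 CPM in KO (log2 -6.69 ± 0.39, edgeR adjusted p = 4.95e-11), with a member at 0.956 in AML and 0.451 in KO (chr6:116460560-116461250). Alox5 stood at 43.0 ± 7.08 CPM in NHD13 and 14.4 ± 2.62 CPM in WT, and the part of the cell mix in its fall was not tested. Fer, a non-receptor tyrosine kinase, had 3 counts over the AML libraries and 326 in KO, a ratio of 118 with an exact counting interval of 40.2 to 578, and its member was the least methylated of the 10 in KO (0.656 in AML, 0.118 in KO, 314 CpG sites). Tcf19, a transcription factor of dividing cells, had 2 counts in AML and 385 in KO (ratio 210, interval 57.7 to 1740), with a member at 0.603 in AML and 0.161 in KO. Flywch2 had 1 count in AML and 365 in KO (ratio 398, interval 71.0 to 15800), with a member at 0.864 in AML and 0.241 in KO. Oaf, Tmem141 and Ccdc90b completed the 10, with means of 0.0287, 0.0547 and 0.0546 CPM in AML, against 5.92, 11.8 and 14.4 CPM in KO, and each of the 10 had its promoter window overlapped.

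Among the 67 tested genes with a gain of 0.5 or more, lower ones included H2-Q7, a class Ib histocompatibility gene with close relatives that can share its reads, at 5.82 ± 0.498 CPM in AML and 50.6 ± 3.67 CPM in KO (log2 -3.12 ± 0.10, edgeR adjusted p = 1.18e-15; member 0.836 in AML, 0.333 in KO). Mapk7, a MAP kinase, stood at 0.152 ± 0.0208 CPM in AML and 6.83 ± 1.03 CPM in KO (log2 -5.45 ± 0.27, edgeR adjusted p = 8.45e-13; member 0.737 in AML, 0.136 in KO). Tjp1, the tight junction scaffold, had 1 count in AML, a ratio of 185 with an interval of 32.8 to 7360 (member 0.851 in AML, 0.204 in KO). Higher ones included Sfn, a stress-response adaptor of epithelia, at 14.5 ± 1.31 CPM in AML and 0.888 ± 0.351 CPM in KO (log2 4.06 ± 0.23, edgeR adjusted p = 4.32e-12; member 0.754 in AML, 0.236 in KO). Nav2, a cytoskeletal guidance protein, stood at 32.3 ± 1.14 CPM in AML and 6.22 ± 0.372 CPM in KO (log2 2.37 ± 0.12, edgeR adjusted p = 1.28e-12; member 0.7 in AML, 0.151 in KO). These 5 genes were chosen after their values were seen.

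Of the 10 linked genes that rose most, 7 had a member beside the promoter window and 3 had one over it. Over all 910 linked genes tested, 447 had an overlapped window, of which 181 were lower and 156 higher. Both sets of 10 were picked by fold change, and the difference between them in overlap was not tested. Zic1, a zinc-finger factor of the cerebellum (ENSMUSG00000032368), stood at 36.5, 40.2 and 35.3 CPM in AML and had no count in any KO library, at least 825-fold higher with the same floor for the KO group (edgeR adjusted p = 5.94e-13). NHD13 and WT also had no Zic1 counts. Its member was small, 181 bases with 10 CpG sites (chr9:91366712-91366892), at 0.725 in AML and 0.48 in KO. Map3k9, a kinase above the JNK pathway, stood at 27.6 ± 1.14 CPM in AML and 0.164 ± 0.115 CPM in KO (log2 7.46 ± 0.23, edgeR adjusted p = 8.2e-16), with a member at 0.484 in AML and 0.156 in KO. Adam19, a membrane metalloprotease, was an exception in that its window was overlapped, by a member of 1766 bases with 172 CpG sites (chr11:46055821-46057586) at 0.81 in AML and 0.323 in KO. Adam19 stood at 8.75, 9.54 and 10.3 CPM in AML, against 0, 0.0761 and 0.19 CPM in KO (log2 6.64 ± 0.34, edgeR adjusted p = 1.12e-12). Dlg4, a scaffold of synapses, and Strip2 also had overlapped windows, with log2 fold changes of 6.08 ± 0.21 and 5.50 ± 0.35, and the other 7 of the 10 had not: Zic1, Map3k9, Ssh3, Cdc42bpb, Ccdc85c, Rnf225 and Irf4.

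**Figure D5:**
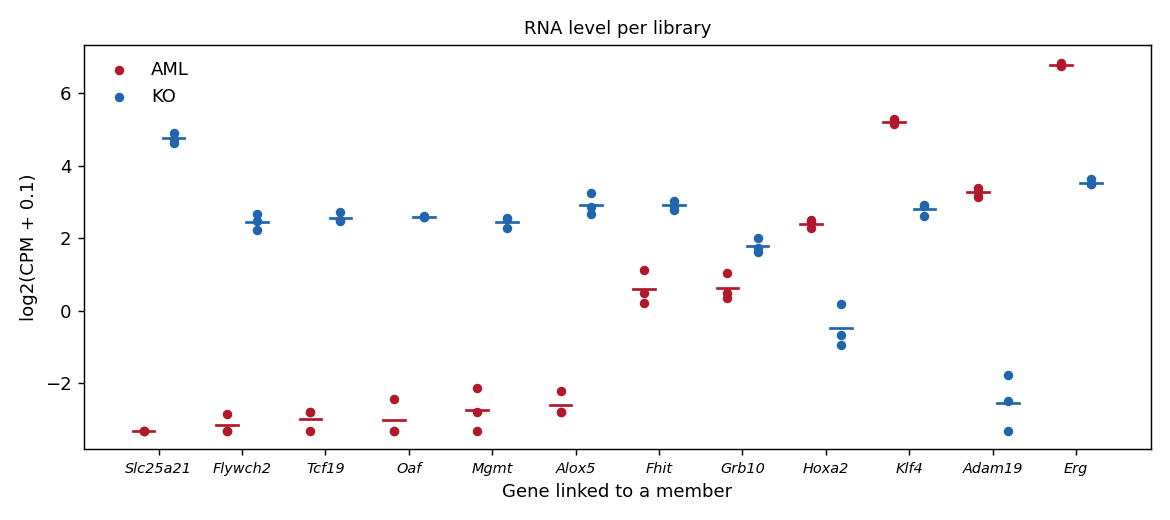
RNA level of 12 linked genes (y axis, log2 of CPM + 0.1) in each of the 3 AML libraries (red, left) and the 3 KO libraries (blue, right), with a line at the mean. For each gene shown the AML and KO libraries do not overlap; 8 genes are lower and 4 higher in AML.

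Blood genes with a member near the promoter did not move one way. The counts of this and the next paragraphs stand beside 39.5% lower and 42.8% higher among all genes tested. Of the 6 linked stem and progenitor regulators, 3 rose, 1 fell and 2 were not called. Erg, an ETS factor of stem cells, rose to 111 ± 3.22 CPM in AML against 11.5 ± 0.631 CPM in KO (log2 3.27 ± 0.08, edgeR adjusted p = 5.8e-17) with a member at 0.702 in AML and 0.456 in KO. Prdm16, a zinc-finger factor of stem cells, fell to 2.13 ± 0.0592 CPM in AML, against 14.3 ± 1.21 CPM in KO (log2 -2.75 ± 0.15, edgeR adjusted p = 3.24e-12; member 0.535 in AML, 0.284 in KO). Runx1, a master factor of blood formation, stood at 84.5 ± 2.93 CPM in AML and 74.7 ± 3.79 CPM in KO (log2 0.18 ± 0.08, edgeR adjusted p = 0.0376), but its log2 fold change was -0.01 with upper-quartile scaling, so its direction is not settled. Gata2, another stem cell factor, was not called (log2 -0.01, edgeR adjusted p = 0.978), although its member stood at 0.795 in AML and 0.345 in KO.

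All 3 linked erythroid and megakaryocyte genes fell in AML, where the summed erythroid markers were also lower (above) and where 39.5% of all genes tested were lower. Add2, a subunit of the red cell membrane skeleton, stood at 4.07 ± 0.705 CPM in AML and 19.9 ± 0.612 CPM in KO (log2 -2.29 ± 0.12, edgeR adjusted p = 1.27e-12; member 0.698 in AML, 0.284 in KO). Gp1bb, a platelet receptor subunit, stood at 1.66 ± 0.29 CPM in AML and 10.3 ± 1.79 CPM in KO (log2 -2.62 ± 0.17, edgeR adjusted p = 5.63e-11; member 0.573 in AML, 0.293 in KO). Sox6, a factor of globin switching, stood at 0.883 ± 0.0595 CPM in AML and 6.72 ± 0.679 CPM in KO (log2 -2.92 ± 0.19, edgeR adjusted p = 6.22e-11; member 0.769 in AML, 0.563 in KO). Of the 4 linked myeloid genes 3 rose and 1, Il3ra, was not called: Irf4, a factor of B cells and dendritic cells (log2 4.99 ± 0.32), Klf4, a monocyte factor (37.2 ± 1.65 CPM in AML and 6.91 ± 0.784 CPM in KO, log2 2.43 ± 0.12), and Rara, the retinoic acid receptor (log2 1.86 ± 0.13).

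Of the 13 linked tumor suppressors, 8 passed the filter, of which 3 fell, 3 rose and 2 were not called. Besides Mgmt, Fhit, a diadenosine hydrolase at a fragile site, fell to 1.29, 1.06 and 2.07 CPM in AML, against 6.8, 8.1 and 7.31 CPM in KO (log2 -2.32 ± 0.19, edgeR adjusted p = 2e-09), with a member of 1993 bases at 0.698 in AML and 0.211 in KO. Timp3, an inhibitor of metalloproteases, had no count in AML and at most 1.79 CPM in KO, at least 36-fold lower (edgeR adjusted p = 1e-07; member 0.581 in AML, 0.242 in KO). Klf4, Hic1 and Cdkn2a rose. Hic1, a transcriptional repressor, stood at 3.47 ± 0.142 CPM in AML and 0.132 ± 0.0709 CPM in KO (log2 4.62 ± 0.35, edgeR adjusted p = 4.56e-10; member 0.536 in AML, 0.207 in KO). Cdkn2a, an inhibitor of the cell cycle, reached at most 1.25 CPM in AML and 0.0949 CPM in KO (log2 4.87, edgeR adjusted p = 1.46e-05; member 0.571 in AML, 0.355 in KO).

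Imprinted genes are methylated on one parental copy, and 16 of them were linked. Members over Peg3, Snrpn, Dio3 and Nnat stood at 0.89, 0.889, 0.862 and 0.932 in AML, and at 0.621, 0.687, 0.521 and 0.657 in KO. The member at Grb10, a growth inhibitor, had 459 CpG sites (chr11:12036135-12038857) at 0.92 in AML and 0.385 in KO, and its RNA fell to 1.47 ± 0.424 CPM in AML, against 3.36 ± 0.477 CPM in KO (log2 -1.19 ± 0.21, edgeR adjusted p = 3.29e-05). Mcts2 also fell, to 7.55 ± 0.397 CPM in AML against 17.7 ± 0.656 CPM in KO (log2 -1.23 ± 0.14, edgeR adjusted p = 1.67e-07; member 0.958 in AML, 0.585 in KO). Gnas, the stimulatory G protein subunit, rose (log2 1.72 ± 0.12), as did Nnat, a membrane protein of neurons (1.55, 1.96 and 1.52 CPM in AML, against 0.158, 0.0381 and 0 CPM in KO; log2 4.67 ± 0.57, edgeR adjusted p = 4.46e-07). Of the 6 tested genes 2 rose, 2 fell and 2 were not called. Alleles cannot be told apart in these tables.

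Lists of developmental genes gave few tests, beside 42.8% higher and 39.5% lower among all genes tested. Of 70 linked homeobox genes outside the clusters 6 passed the filter, with 4 higher, 1 lower and 1 not called, and of 57 other developmental factors 2 passed, Zic1 and Foxd2, both higher. Foxd2, a forkhead factor of kidney and face, stood at 4.57 ± 0.512 CPM in AML and 0.372 ± 0.118 CPM in KO (log2 3.58 ± 0.32, edgeR adjusted p = 4.34e-09), with a member at 0.803 in AML and 0.286 in KO. Meox2, a mesodermal homeobox gene, was the one lower, at 0.501 ± 0.193 CPM in AML and 1.9 ± 0.286 CPM in KO (log2 -1.93 ± 0.37, edgeR adjusted p = 0.000143; member 0.593 in AML, 0.186 in KO). Of the 15 linked cadherins Pcdh17 alone was tested and fell to 0.259, 0.128 and 0.078 CPM in AML, against 2.53, 2.82 and 3.7 CPM in KO (log2 -4.26 ± 0.44, edgeR adjusted p = 4.28e-08), with a member of 5069 bases and 528 CpG sites at 0.758 in AML and 0.205 in KO. Of 54 linked neuronal genes 5 were tested, 4 higher and 1 lower, the potassium channel Kcnc1 (1.3 ± 0.228 CPM in AML and 5.58 ± 0.685 CPM in KO, log2 -2.10 ± 0.26, edgeR adjusted p = 4.11e-07; member 0.932 in AML, 0.412 in KO). Among the linked Polycomb genes, Cbx7 and Phf1 rose (log2 2.51 ± 0.15 and 3.23 ± 0.14) and Phc2 was not called.

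NHD13 was also set against WT. Of the 910 tested, 379 were lower in NHD13 than in WT (41.6%, against 28.7% of all genes tested) and 184 higher (20.2%, against 25.3%). At least 2-fold lower were 285 (31.3%, against 15.9%) and at least 2-fold higher 95 (10.4%, against 7.15%). Since most linked genes had little RNA, some passed the filter through WT alone and had to be lower in NHD13, such as the homeobox gene Nkx2-3, at 8.6 to 10.4 CPM in WT and at most 0.0524 CPM in NHD13. These shares therefore support nothing about the members. Between KO and NHD13 the linked genes were near the background, with 216 lower (23.7%, against 20.3%) and 205 higher (22.5%, against 20.6%). These comparisons share the NHD13 libraries with each other and the KO libraries with that of AML. Xist, which is made from the inactive X chromosome, was at most 0.0426 CPM in AML and 0.105 CPM in KO. It stood at 66.0 to 137 CPM in NHD13 and 115 to 218 CPM in WT. The part of this split in the KO against NHD13 counts was not tested. NHD13 held neutrophil markers at 60000 to 79100 CPM and WT at 679 to 950 CPM. The summed stem and progenitor markers stood at 86.3 to 91.7 CPM in NHD13 and 665 to 683 CPM in WT, so the HSPC name of NHD13 rests on its label. The part of these differences in the NHD13 against WT counts was not tested.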

How the data were processed

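The authors' deposited region tables list, per the file headers, each region's methylation in both libraries as a fraction, its summed score, length and CpG sites. The caller and the coverage are not given in the labels or headers. The side of each library followed the order of names in the tables and was checked on regions with identical coordinates that share a library (2236 for KO, median difference 8.7e-06, against 0.308 for the other side). H3K36me3 peaks were deposited by the authors with a fold enrichment, a score and −log10 p and q values, 1 list per library; per the submitters' processing notes MACS2 2.1.1.20160309, Bismark 0.19.0, HISAT2 2.0.5, HTSeq 0.9.1 and the build mm10 were used. Raw read counts of 53946 genes and an FPKM table were deposited by the authors for 12 RNA libraries.

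Counts were tested with edgeR 4.0.16 (TMM, filterByExpr, 1 model over 12 libraries, robust quasi-likelihood F test, Benjamini-Hochberg over 16233 genes, 0.05), checked on simulated data. CPM uses TMM-scaled totals. Members were linked to genes by RefSeq promoter windows (GRCm38.p6) extended by 1000 bases; genes with no window are not linked, and none on chromosome 18 were used. An overlap is at least 1 base. Replicate numbers do not pair the samples. Named regions were the members with the largest gain, the most CpG sites or the greatest length and those beside each threshold. Named genes were those linked to the members with the largest summed score, the 10 that fell and the 10 that rose most with at least 5 CPM in the higher group, an official symbol and no overlap between AML and KO libraries, up to 4 of each of 18 lists, and the 5 with the most members; the text prints part of them. Meis1, Tcf15, Gata2, Timp3, Cdkn2a, Hoxd13, Peg3, Snrpn, Dio3, Nkx2-3 and the 5 genes named for a gain of 0.5 or more fall outside this rule and were chosen after their values were seen. The members, lists and rules were chosen with earlier results of these data known. Overlapping and antisense genes are uncertain, since no label states a strand setting.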

Additional observations from a re-analysis of the deposited data

How the results depend on the processing

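With a minimum gain of 0.3 or 0.4 there were 4426 or 1725 members, and with a density of 0.08 there were 5276, against 11702. Without a window around promoters 1878 genes were linked, against 2911. The share of members overlapping a NHD13 AML peak was 6.66% when at least 50% of the member had to be covered, 5.99% for peaks with a −log10 q of at least 5 and 4.38% for members with a gain of 0.3 or more; for KO AML peaks the first of these gave 1.07% and the second 0.59%. Linked genes lower in AML than KO numbered 322, but 181 with no window, 536 with 5000 bases and 165 with a gain of 0.3 or more; those higher numbered 377, but 156, 653 and 156. Leaving out each AML or KO replicate in turn gave 319 to 324 lower and 375 to 391 higher. With DESeq2 these were 362 and 405, with no filter on low counts 383 and 437, with upper-quartile factors 343 and 351, and with the replicate block 318 and 374. The linked genes tested numbered 910, but 1312 with DESeq2 and 2147 with no filter. With DESeq2 27.6% of them were lower and 30.9% higher, against 31.7% and 34.2% of all genes. With no filter these were 17.8% and 20.4%, against 20.6% and 23.2%. With upper-quartile factors 37.7% of the linked genes were lower and 38.6% higher. The replicate numbers share no pairing: same-numbered libraries correlated at 0.005 to 0.034. Upper-quartile factors moved the median log2 fold change of all genes to -0.11, against 0.07, and their split of calls to 43.5% lower and 39.0% higher. Runx1 reversed there, at -0.01.

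The counts at a gain of 0.5 or more and their alternatives were added after the data were seen. They were 44 lower and 14 higher, 29 and 6 with a mean of at least 1 CPM over 12 libraries (a level that genes near 0 in AML can reach through the other groups), 42 and 7 with no window, and 40 to 44 and 14 to 17 without each replicate. Of 670 settings of 67 named genes, 638 left direction and call as they were, 26 lost the call and 5 gained it. Methylation and ChIP rest on 1 library per group, so no value of theirs has a replicate error, and coverage is unknown.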

Other observations

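The enzymes and readers of DNA methylation also differed between AML and KO. Of 21 genes of this list, all tested, 14 were higher in AML, 4 lower and 3 not called (edgeR adjusted p below 0.05), against 42.8% higher and 39.5% lower of all genes tested; with upper-quartile factors 11 were higher, 4 lower and 6 not called, and 1 changed sign. Dnmt1, the maintenance methyltransferase, stood at 461 ± 12.5 CPM in AML and 131 ± 17.7 CPM in KO (SD, n = 3 each; log2 1.81 ± 0.11 SE, edgeR adjusted p = 1.07e-09). The de novo enzymes Dnmt3a and Dnmt3b stood at 164 ± 8.33 and 131 ± 3.48 CPM in AML, against 42.0 ± 6.27 and 47.3 ± 2.53 CPM in KO (log2 1.96 ± 0.11 and 1.46 ± 0.08). Tet2 and Tet3, which oxidise methylcytosine, were higher too, with log2 fold changes of 1.31 ± 0.08 and 2.2 ± 0.09. Idh1 and Idh2, which make the cofactor of the Tet enzymes, were lower, at 43.7 ± 2.03 and 281 ± 9.55 CPM in AML, against 114 ± 11.4 and 612 ± 14.6 CPM in KO. The part of these levels in the gains of methylation was not tested.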
